A study of Mus musculus with 22 samples.

Results

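The 40 genes described here mark T cells and cytotoxic lymphocytes. They are a named list with no threshold on measured values, but the list was drawn up with earlier results of these data known, so counts over it are a description. All 40 were found among the 52636 genes of the deposited files. They fall into 6 sets by role: 7 genes of the T cell receptor complex, 10 pan-T surface and signalling genes, 4 helper genes, 6 regulatory and checkpoint genes, 9 cytotoxic genes and 4 natural killer (NK) receptor genes. Their RNA was measured by bulk sequencing in 22 mouse libraries. Capsule tissue (the renal capsule is the thin fibrous sheath around the kidney) gave 3 young and 3 aged libraries. There were 4 libraries each of capsule macrophages, kidney macrophages, young RCAM and aged RCAM. All samples are labelled as untreated. No strain, genotype, sex or age in weeks was given, and no age at all for the capsule and kidney macrophages. RCAM is not expanded in the labels, which call those libraries whole tissue, whereas the series text speaks of sorting macrophages. Nothing in the labels shows that replicates were separate animals, so a p-value here reflects variation among libraries that could be technical alone.

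A T cell recognises antigen through paired alpha and beta receptor chains, which the CD3 proteins and the zeta chain connect to the kinases Lck and Zap70 and the adaptor Lat. The co-receptor CD4 marks helper and regulatory T cells and CD8 marks cytotoxic T cells. Cytotoxic T cells and NK cells kill through perforin and granzymes, while checkpoint receptors such as PD-1 and TIGIT restrain responding cells. Several of these genes are not restricted to lymphocytes: Thy1 also marks fibroblasts and nerve cells, Gata3 is also made by kidney collecting duct, and Cd4 is also made by some tissue macrophages.

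The beta chain constant regions are encoded by a pair of near-identical genes on mouse chromosome 6 (GRCm38, GENCODE M21, plus strand), Trbc1 at chr6:41538218-41539881 and Trbc2 at chr6:41546730-41548352. Their transcripts are shown because reads of 50 bases from the shared parts cannot be assigned to either gene. Of the 50-base windows of the annotated transcripts, 283 were shared, 40.5% of those of Trbc1 and 44.0% of those of Trbc2. Over the 512 aligned bases, 24 differed and the longest identical run was 259 bases. The coding stretch with the most differences is bases 413 to 512 of each transcript, 5′ to 3′, with the 18 differing bases in capitals.
Trbc1: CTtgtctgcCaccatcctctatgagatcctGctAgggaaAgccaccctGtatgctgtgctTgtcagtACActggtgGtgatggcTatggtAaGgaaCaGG
Trbc2: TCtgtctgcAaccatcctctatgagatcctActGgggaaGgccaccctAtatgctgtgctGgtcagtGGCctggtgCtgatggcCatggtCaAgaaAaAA
The split of beta chain reads between these genes is therefore uncertain, and their values below are best read together.

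Library totals were 20.59 to 22.19 M counts (M, 1e6) in young capsules, 27.09 to 43.23 M in aged capsules and 31.85 to 54.42 M in the other 16 libraries. Levels are given as CPM, counts per 1e6 of the library total over all genes. Fold changes are from edgeR after TMM scaling, with a standard error (SE), and a gene was called at a Benjamini-Hochberg adjusted p under 0.05 over all genes tested. The 10 macrophage markers had sums of 38200 to 43100 CPM across the RCAM libraries, 35300 to 39300 CPM across capsule macrophages and 2160 to 10700 CPM across capsule tissue. By this sum the RCAM libraries lay beside the sorted macrophages and not beside the tissue of their label, and they are called here by their title. Aged capsule replicate 2 held 5990 CPM of the 6 adrenal cortex markers and young capsule replicate 2 held 187 CPM, against 10.5 to 24.1 CPM in the other capsule libraries. No pair of libraries of a group agreed within sampling noise.

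The sum of all 40 genes was 119, 116 and 146 CPM in the young capsules and 334, 267 and 299 CPM in the aged capsules. In 30 of the 40 genes every aged library stood above every young library, compared with 19.1% of all genes tested, and in none did every aged library stand below (9.52% of all genes tested). In the edgeR test, 39 genes could be tested and 0 were called higher or lower, where 0.153% of all genes tested were called higher and 0.0856% lower. An unadjusted p under 0.05 was reached by 26 of the 39 in the higher direction (10.9% of all genes tested) and by 0 in the lower direction (11.7% of all genes tested). The median log2 fold change was 1.28 for the 39 genes and 0.03 for all genes tested. In bulk tissue, more cells of a type and more RNA per cell cannot be told apart.

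The count of calls depended on the fit. Replicate numbers were taken to pair young and aged capsules from the way same-numbered libraries deviated together, and with the number as a block 19 genes were called higher and 0 lower, where 5.77% of all genes tested were called higher. The pairing was read from the spread of these same counts and is not in the labels. A smaller residual spread with the block is thus in part built in, and its p-values are no independent support. DESeq2 called 20 higher (4.61% of all genes tested) and limma-voom called 1, Tigit (0.0856% of all genes tested). With no filter on low counts 16 were called higher (1.6% of all genes tested). Of the 19 called with the block, 5 belonged to the T cell receptor complex, 6 to the pan-T set and 1 to the helper set. A further 2 belonged to the regulatory and checkpoint set, 5 to the cytotoxic set and 0 to the NK receptors. For capsule tissue, the adjusted p with the block is printed below only for these 19 genes. For the other tested genes it was 0.0556 (Lck) to 0.946 (Klrb1c) in edgeR. Among the 19, limma-voom gave adjusted p-values of 0.0749 to 0.167 for all but Tigit. Without both libraries numbered 2, 4 genes were called higher by edgeR, namely Cd8b1, Tigit, Cd8a and Il7r (1.06% of all genes tested). Without young replicate 2 alone, 5 were called (Cd3e, Cd6, Cd8b1, Pdcd1 and Tigit, where 0.368% of all genes tested were called higher), and without aged replicate 2 alone, 2 (Il7r and Cd8b1, where 0.561% were).

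**Figure D1:**
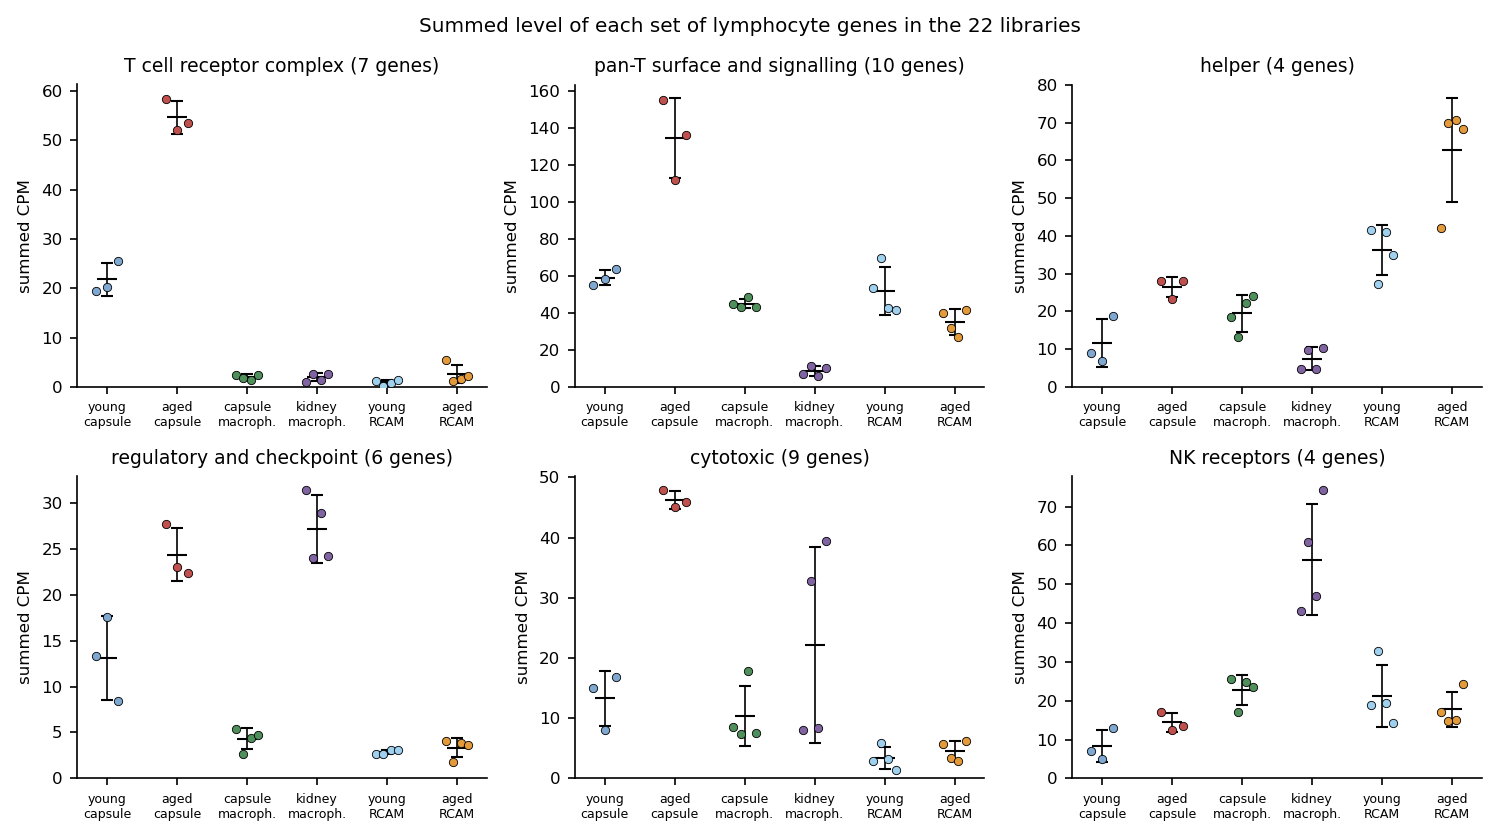
Summed CPM of each set of genes (vertical axes, from 0) in the 6 groups, with 1 point per library, a bar at the mean and whiskers of 1 SD. The 3 aged capsules lie above the 3 young capsules in 5 of the 6 sets, the NK receptors being the exception, while the T cell receptor complex stays under 6 CPM in the 16 macrophage and RCAM libraries.

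The T cell receptor complex summed to 19.5, 20.3 and 25.6 CPM in young and 58.4, 52.0 and 53.6 CPM in aged capsules. In 6 of its 7 genes the aged values lay above the young ones without overlap (19.1% of all genes tested). Cd3e, a signalling chain of the receptor, was at 2.19, 2.02 and 2.43 CPM in young and 10.7, 7.74 and 6.39 CPM in aged capsules. Its log2 fold change was 1.77 ± 0.28 (SE, edgeR adjusted p = 0.0555, with the replicate block 0.0105). Every aged value was more than 2.43 CPM, the highest young value. Cd3g, a further CD3 chain, was at 3.16, 3.43 and 4.64 CPM against 9.30, 8.57 and 12.7 CPM (log2 fold change 1.33 ± 0.29, edgeR adjusted p = 0.0843, with the block 0.0126). The alpha chain constant gene Trac stood at 1.94, 1.46 and 2.48 CPM in young and 7.22, 5.65 and 5.39 CPM in aged capsules (1.51 ± 0.31, edgeR adjusted p = 0.0768, with the block 0.0218). Both genes were separated by age without overlap. Trbc2 was at 5.15, 3.66 and 5.90 CPM against 12, 12.5 and 10.1 CPM (1.12 ± 0.25, edgeR adjusted p = 0.0852, with the block 0.0300). Its near copy Trbc1 was lower in level and had the same direction, with 0.777, 0.987 and 1.62 CPM against 3.52, 1.71 and 2.25 CPM (1.0 ± 0.45, edgeR adjusted p = 0.234). Cd3d was at 3.15 to 5.36 CPM in young and 7.22 to 11.2 CPM in aged capsules (1.01 ± 0.33, edgeR adjusted p = 0.133, with the block 0.0334). Cd247, the zeta chain, was the gene of this set with overlapping groups. It ranged from 2.72 to 5.54 CPM in young and from 5.54 to 8.37 CPM in aged capsules, and 56.4% of its exon bases lie opposite exons of Pou2f1, from which its reads cannot be told apart without stated use of strand.

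All 10 pan-T surface and signalling genes were without overlap between young and aged capsules, and 9 of them had an unadjusted p under 0.05 in edgeR, where 19.1% and 10.9% of all genes tested did so in that direction. Cd6, a surface receptor of mature T cells, was at 0.971, 0.752 and 1.17 CPM in young and 7.75, 6.72 and 3.69 CPM in aged capsules (2.52 ± 0.38, edgeR adjusted p = 0.0535, with the block 0.0101). Il7r, the receptor chain for the survival factor IL-7, was at 3.40, 2.87 and 5.81 CPM in young and 33.7, 8.97 and 38.8 CPM in aged capsules (2.63 ± 0.55, edgeR adjusted p = 0.0803, with the block 0.00464). Aged replicate 2 was the low library among the aged ones for Il7r. Without it the log2 fold change was 3.05 (edgeR adjusted p = 0.0186). Lck, the kinase that starts receptor signalling, was at 5.20, 2.87 and 9.60 CPM in young and 20.6, 12.9 and 11.6 CPM in aged capsules (1.22 ± 0.42, edgeR adjusted p = 0.149). Zap70, the kinase that Lck activates, was at 0.729, 1.32 and 2.66 CPM against 5.67, 3.32 and 4.69 CPM (1.4 ± 0.49, edgeR adjusted p = 0.153). Its value without young replicate 3, the highest young library, was 2.04 (edgeR adjusted p = 0.124). Cd5, a receptor that dampens T cell receptor signals, was at 0.923, 1.13 and 1.4 CPM against 5.34, 7.31 and 2.29 CPM (1.98 ± 0.47, edgeR adjusted p = 0.0907, with the block 0.0407).

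Cd28, the main co-stimulatory receptor, was at 4.32, 2.02 and 2.70 CPM in young and 8.03, 7.44 and 9.41 CPM in aged capsules (1.36 ± 0.32, edgeR adjusted p = 0.0907, with the block 0.0280). Cd2, an adhesion receptor, was at 4.08, 4.09 and 7.71 CPM against 10.8, 9.45 and 9.82 CPM (0.80 ± 0.31, edgeR adjusted p = 0.179). Thy1 had the highest level of the set and the smallest difference, with 32.1, 38.5 and 27.8 CPM in young and 49.0, 46.3 and 44.4 CPM in aged capsules (0.39 ± 0.17, edgeR adjusted p = 0.233). These 3 genes were each separated by age, with unequal sizes. Capsule macrophages also held Cd2 at 31.8 to 41.5 CPM and Cd28 at 1.85 to 4.78 CPM, and macrophage genes stood higher in aged capsules. The part of macrophage RNA in these differences was not tested. The adaptor Lat ranged from 1.89 to 3.52 CPM in young and from 5.84 to 8.40 CPM in aged capsules (edgeR adjusted p = 0.0971, with the block 0.0456). Cd27, a co-stimulatory receptor of the tumour necrosis factor receptor family, ranged from 1.08 to 1.89 CPM and from 3.24 to 5.55 CPM (edgeR adjusted p = 0.106, with the block 0.0499).

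**Figure D2:**
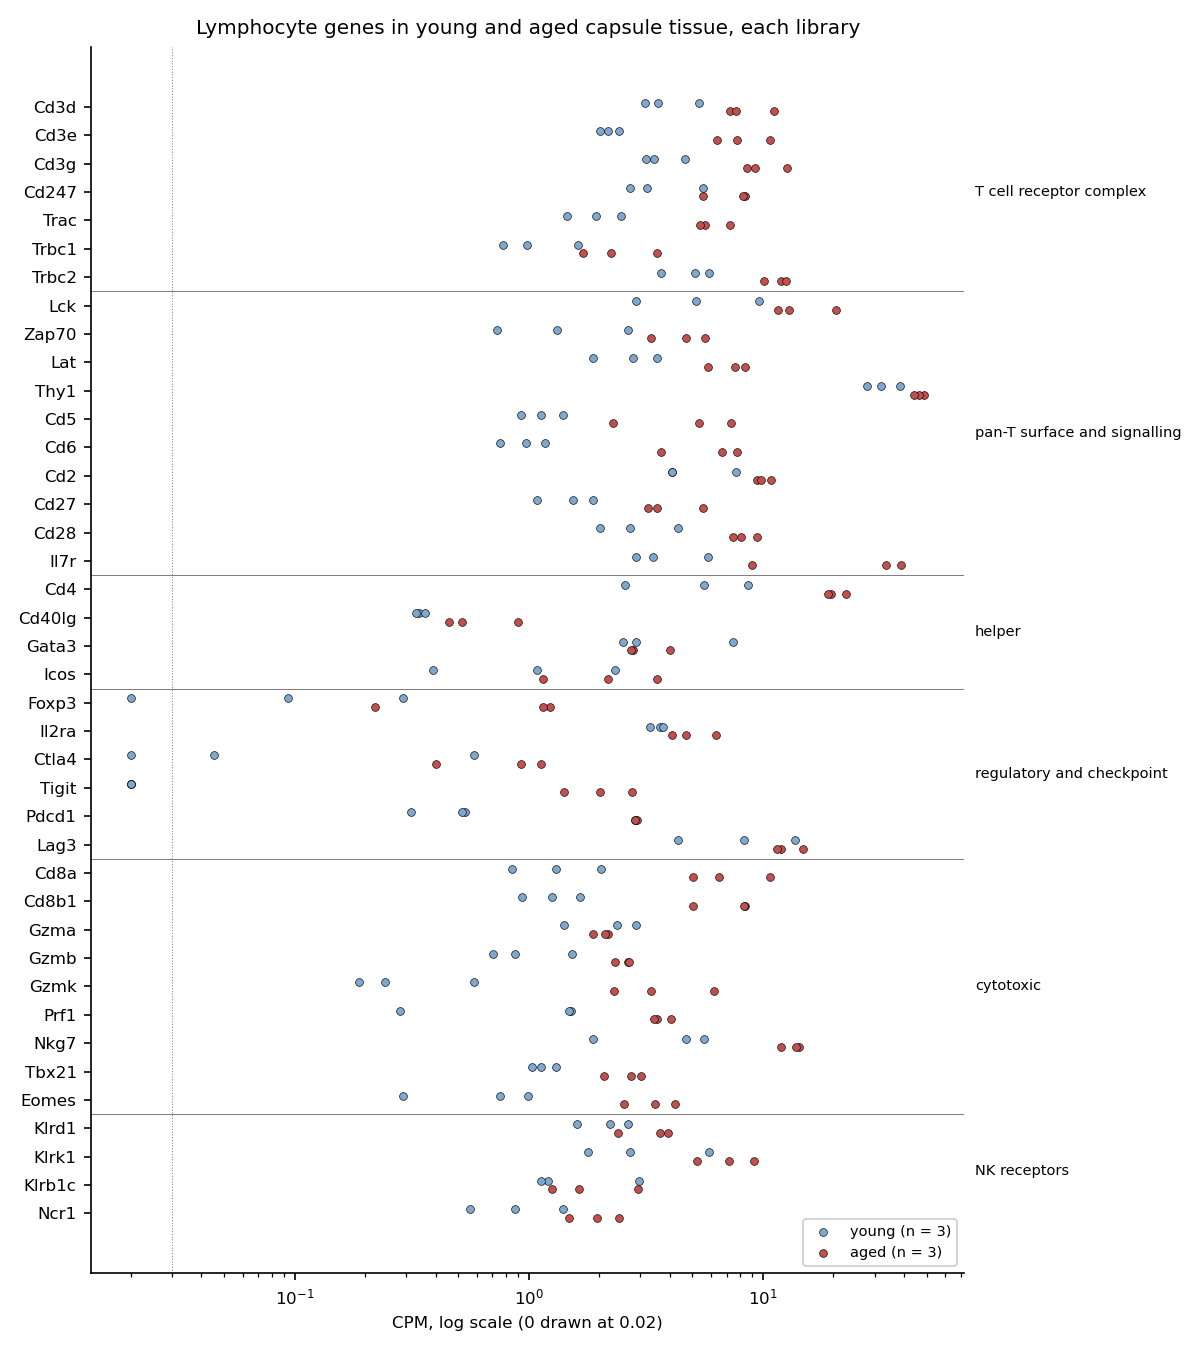
CPM of each of the 40 genes (horizontal axis, log scale, 0 drawn at 0.02) in the 3 young and 3 aged capsule libraries, 1 point per library, ordered by set. In 30 genes the aged points lie wholly to the right of the young points, and Tigit has its 3 young points at 0.

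Helper genes were less uniform. Cd4, the helper co-receptor, was at 5.63, 2.58 and 8.65 CPM in young and 19.5, 18.9 and 22.6 CPM in aged capsules (1.75 ± 0.40, edgeR adjusted p = 0.0863, with the block 0.00927). The groups were apart, but macrophage genes also stood higher in the aged capsules, as given below with the marker lists. Gata3, the factor of type 2 helper cells, was at 2.53, 2.87 and 7.48 CPM in young and 4.0, 2.78 and 2.73 CPM in aged capsules (-0.57 ± 0.46, edgeR adjusted p = 0.506). The young and aged values overlapped, and without young replicate 3, the high library, the log2 fold change was 0.13. Icos, a co-stimulatory receptor of activated T cells, was at 0.389, 1.08 and 2.34 CPM against 3.52, 1.15 and 2.18 CPM (0.69 ± 0.67, edgeR adjusted p = 0.581) and also overlapped. It was 1.49 without young replicate 3. Cd40lg, through which helper T cells stimulate B cells, was at 0.329 to 0.361 CPM in young and 0.455 to 0.902 CPM in aged capsules (edgeR adjusted p = 0.446).

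Among regulatory and checkpoint genes, Tigit had 0 counts in all 3 young capsules and was at 1.41, 2.01 and 2.77 CPM in the aged capsules. Against a floor of 3 counts over the young group, Tigit was at least 41.8-fold higher in the aged group (edgeR adjusted p = 0.0535, with the block 0.0111). Pdcd1, which encodes PD-1, was at 0.534, 0.517 and 0.315 CPM in young and 2.85, 2.89 and 2.84 CPM in aged capsules (2.53 ± 0.40, edgeR adjusted p = 0.0591, with the block 0.0137). Both checkpoint receptors were thus separated by age in every library. Lag3, a receptor for MHC class II, was at 8.31, 13.7 and 4.33 CPM against 14.8, 12 and 11.5 CPM (0.41 ± 0.39, edgeR adjusted p = 0.578). Il2ra, the high-affinity IL-2 receptor chain of regulatory and activated T cells, was at 3.64, 3.29 and 3.74 CPM against 6.32, 4.68 and 4.10 CPM (0.38 ± 0.27, edgeR adjusted p = 0.448). Lag3 overlapped between the groups and Il2ra did not. Ctla4, a checkpoint receptor, was at 0.583, 0 and 0.0451 CPM in young and 1.13, 0.402 and 0.923 CPM in aged capsules (1.87 ± 1.05, edgeR adjusted p = 0.334). Its log2 fold change was 4.79 without young replicate 1 and 1.27 without young replicate 2. Foxp3, the factor that defines regulatory T cells, did not pass the filter on low counts. It had 0 to 6 counts in young and 6 to 53 counts in aged capsules, and parts of its exons overlap those of neighbouring genes, among them Ccdc22.

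Both CD8 chains were separated by age. Cd8a was at 2.04, 0.846 and 1.31 CPM in young and 10.7, 5.03 and 6.50 CPM in aged capsules (2.28 ± 0.41, edgeR adjusted p = 0.0666, with the block 0.00386). Cd8b1, the second chain, was at 1.65, 0.940 and 1.26 CPM against 8.42, 5.03 and 8.27 CPM (2.38 ± 0.35, edgeR adjusted p = 0.0505, with the block 0.00400). Cd8b1 had the smallest p of the 40 genes in this comparison, and its adjusted p was 0.0488 with DESeq2's size factors in edgeR. The killing genes differed among themselves. Gzmk, a granzyme, was at 0.243, 0.188 and 0.586 CPM in young and 2.31, 6.21 and 3.32 CPM in aged capsules (3.42 ± 0.61, edgeR adjusted p = 0.0666, with the block 0.0116). The log2 fold change was 4.10 when young replicate 3 was left out and 2.64 when both libraries numbered 2 were. Gzma, another granzyme, was at 2.38, 1.41 and 2.88 CPM against 2.17, 2.11 and 1.88 CPM (-0.23 ± 0.37, edgeR adjusted p = 0.760), so that the aged values lay within the young range. Nkg7, a protein of cytotoxic granules, was at 4.71, 1.88 and 5.59 CPM against 12, 14.2 and 13.9 CPM (1.62 ± 0.38, edgeR adjusted p = 0.0894, with the block 0.0224). Eomes, a factor of memory CD8 T cells and NK cells, ranged from 0.291 to 0.992 CPM in young and from 2.55 to 4.23 CPM in aged capsules (2.19 ± 0.51, edgeR adjusted p = 0.0875, with the block 0.0288). The related factor Tbx21, the granzyme Gzmb and the perforin gene Prf1 had no overlap either, at 1.06, 1.19 and 1.64 on the log2 scale with edgeR adjusted p-values of 0.138, 0.154 and 0.143.

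Of the 4 NK receptor genes, 0 reached an unadjusted p under 0.05 in edgeR, where 10.9% of all genes tested did so as higher and 11.7% as lower. Only 1 of them, Ncr1, was higher in aged capsules without overlap (19.1% of all genes tested). With 4 genes this count is near that share. Klrd1, which encodes CD94, was at 2.23, 1.60 and 2.66 CPM in young and 3.93, 2.41 and 3.65 CPM in aged capsules (0.50 ± 0.35, edgeR adjusted p = 0.436). Klrk1, which encodes the activating receptor NKG2D, was at 2.72, 1.79 and 5.86 CPM against 9.21, 5.22 and 7.16 CPM (0.93 ± 0.45, edgeR adjusted p = 0.264). The values of both genes overlapped between the ages. Klrk1 was 1.58 without young replicate 3. Klrb1c, which encodes NK1.1, was at 1.21, 1.13 and 2.97 CPM in young and 1.64, 2.92 and 1.26 CPM in aged capsules (0.01 ± 0.53, edgeR adjusted p = 0.992). The log2 fold change was 0.64 without young replicate 3 and -0.66 without both libraries numbered 2. Ncr1, the natural cytotoxicity receptor NKp46, ranged from 0.564 to 1.4 CPM in young and from 1.48 to 2.43 CPM in aged capsules (edgeR adjusted p = 0.274).

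**Figure D3:**
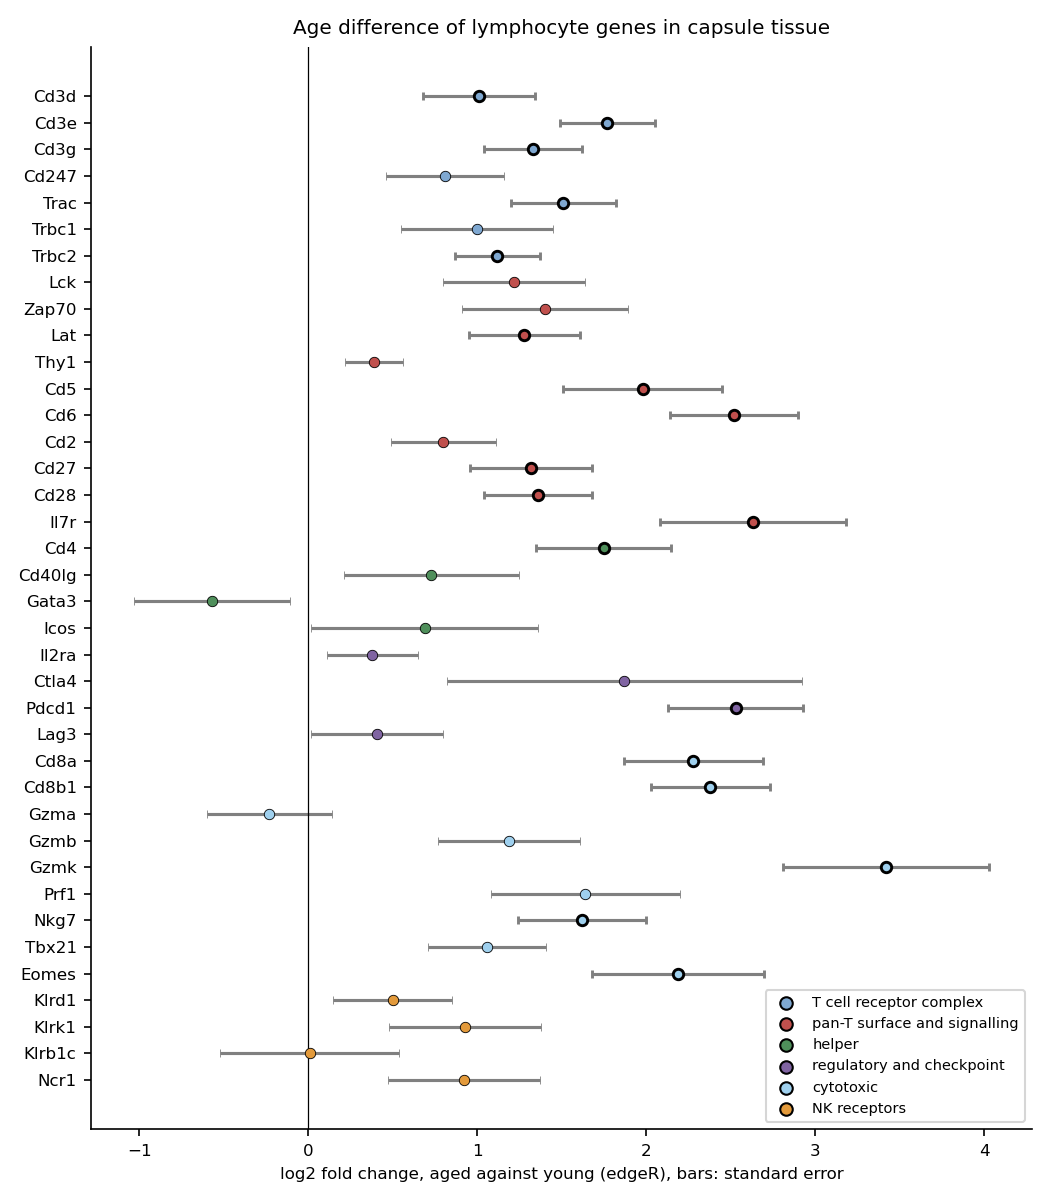
Log2 fold change of aged against young capsule tissue (horizontal axis) with its standard error for 38 of the 39 tested genes, coloured by set. Tigit is left out because it had 0 counts in the young capsules. Thick outlines mark genes with an adjusted p under 0.05 with the replicate block. Gzmk, at 3.42, has the largest value shown, and Gata3 and Gzma lie below 0.

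Levels were also divided by the kb of all annotated exon bases of a gene, which sets genes side by side only roughly. On this scale Trbc2, whose split of reads with Trbc1 is uncertain, was highest in the aged capsules (mean 16.7 CPM per kb). Thy1 followed at 15.6, Nkg7 at 14.6 and Trac at 6.51 CPM per kb. In plain CPM, Thy1 had the highest mean in the aged capsules (46.6 CPM). In the young capsules Thy1 led with 11.0 CPM per kb, followed by Trbc2 at 7.09 CPM per kb.

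Other genes of the same pathways had a like direction in capsule tissue. Of 32 further T cell signalling genes and factors, 29 were tested, 1 was called higher (Ikzf3, a lymphoid transcription factor, 1.77 ± 0.25, edgeR adjusted p = 0.0483) and 0 lower, where 0.153% of all genes tested were called higher. An unadjusted p under 0.05 in the higher direction was reached by 23, against 10.9% of all genes tested. Themis, a T cell development gene, was at 0.361 to 0.826 CPM in young and 2.81 to 4.12 CPM in aged capsules (2.34 ± 0.42, edgeR adjusted p = 0.0666). Of 25 further cytotoxic and NK genes, 22 were tested, 0 were called in edgeR and 7 had an unadjusted p under 0.05 in the higher direction. The chemokine gene Ccl5 was at 4.37 to 10.1 CPM in young and 23.3 to 37.0 CPM in aged capsules (1.89 ± 0.34, edgeR adjusted p = 0.0666). Of 13 gamma-delta T cell and type 17 genes, 12 were tested and 0 called in edgeR, among them the delta constant gene Trdc (1.51 ± 0.45, edgeR adjusted p = 0.115). Of 10 helper cytokine genes, 2 were tested and 0 called, Il10 having the smaller p (1.56 ± 0.46, edgeR adjusted p = 0.114).

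Markers of other cells moved with age in the same libraries. Of all genes tested, 19.1% stood higher in aged capsules without overlap, 9.52% stood lower and 0.153% were called higher. The 8 B cell markers summed to 25.6 to 41.1 CPM in young and 84.4 to 144 CPM in aged capsules, all 8 without overlap and 2 called higher by edgeR. The 6 plasma cell markers summed to 304 to 407 CPM and 668 to 1180 CPM, 3 without overlap and 2 called higher. The 6 neutrophil markers summed to 7.61 to 14.9 CPM and 15.6 to 24.1 CPM, 2 without overlap and 0 called in edgeR. The 10 macrophage markers summed to 2160 to 4270 CPM and 4510 to 10700 CPM, 8 of them without overlap. In the opposite direction, the 6 proximal tubule markers summed to 6070 to 23700 CPM in young and 1170 to 5800 CPM in aged capsules, and the 6 collecting duct markers, which include Gata3, to 24.2 to 90.3 CPM and 11.0 to 20.4 CPM, with 4 of the 6 without overlap in each list. Erythroid markers summed to 7060 to 26400 CPM and 3070 to 9150 CPM. The 6 fibroblast markers overlapped, with 6810 to 11700 CPM and 7290 to 10700 CPM. None of these markers was at 0 in all capsule libraries. Their part in the differences of the lymphocyte genes was not tested.

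Promoter sequence was examined because so many of the genes stood higher together in aged capsules. Windows of 250 bases before the first listed start were taken from RefSeq (GRCm38.p6), in which 27 of the 40 genes were matched. Those not matched were Trac, Trbc1, Trbc2, Thy1, Cd6, Cd2, Cd28, Cd4, Cd40lg, Icos, Lag3, Cd8b1 and Klrd1. An Ets core (AGGAAG, on either strand) was present in 15 of the 27 windows (55.6%) and in 29.2% of the 27025 promoter windows of the table. A Runx core (TGTGGT, on either strand) was present in 9 (33.3%) and in 14.2% of all windows. The motifs were short and a match is a description, not a binding site. A Gata motif (AGATAA) was present in 2 windows (7.41%, against 10.3% of all), a T-box motif (AGGTGTG) in 3 (11.1%, against 5.14%) and a Tcf motif (CTTTGAT) in 1 (3.70%, against 3.23%). The median log2 fold change in aged capsules was 1.4 for the 15 genes with an Ets core and 1.32 for the 11 tested genes without it. For the Runx core the order was the opposite, at 1.19 for the 9 genes with it and 1.4 for the 17 tested genes without it. Lck (chr4:129573642-129573891, minus strand) and Prf1 (chr10:61297586-61297835, plus strand) are shown as a signalling and a killing gene whose windows hold both cores, 5′ to 3′ with the cores in capitals.
Lck: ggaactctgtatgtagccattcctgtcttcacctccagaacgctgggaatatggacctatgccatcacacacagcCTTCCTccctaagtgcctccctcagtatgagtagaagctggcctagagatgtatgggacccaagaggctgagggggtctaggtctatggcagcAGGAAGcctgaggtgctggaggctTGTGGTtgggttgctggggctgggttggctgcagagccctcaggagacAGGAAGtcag
Prf1: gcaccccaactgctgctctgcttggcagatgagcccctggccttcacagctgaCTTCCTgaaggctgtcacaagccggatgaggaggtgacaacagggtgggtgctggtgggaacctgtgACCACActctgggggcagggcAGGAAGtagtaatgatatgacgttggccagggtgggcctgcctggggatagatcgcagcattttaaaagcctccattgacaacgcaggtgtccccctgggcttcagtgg

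In the macrophage and RCAM libraries the T cell receptor genes were at low counts. Cd27 and Foxp3 had 0 counts in all 16 libraries. Cd3e had at most 20 counts in any of them, Trac at most 38 and Trbc2 at most 31, and each was at 0 in 2 or 3 libraries. Other T cell genes were counted in each of the 16 libraries, with at most 45 counts for Cd3d, 101 for Cd247, 193 for Lck and 57 for Zap70. The T cell receptor complex summed to 1.33 to 2.49 CPM in capsule macrophages, 1.05 to 2.67 CPM in kidney macrophages, 0.241 to 1.47 CPM in young RCAM and 1.14 to 5.37 CPM in aged RCAM libraries. Cd8b1 had 0 counts in 14 of the 16 libraries, and Cd8a in none of them, with at most 67 counts. A count of 0 allows up to 3 counts over a group, which for Cd27 in the 4 kidney macrophage libraries is 0.0176 CPM, against 4.24 CPM pooled over the aged capsules. The kit used for each library is not stated, so levels in tissue and in macrophage libraries are set side by side without a test.

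Other genes of the list were abundant there. Per kb of exon, Cd2 had the highest mean level of the 40 in capsule macrophages (20 CPM per kb) and in young RCAM libraries (22.2 CPM per kb). Cd4 was highest in aged RCAM libraries (15.1 CPM per kb) and Klrd1 in kidney macrophages (15.9 CPM per kb). In plain CPM, Klrk1 (mean 32.4 CPM) and Il2ra (24.1 CPM) lay above Klrd1 (20.4 CPM) in kidney macrophages. In capsule macrophages against kidney macrophages, 27 of the 40 genes could be tested. edgeR called 4 higher in the capsule, where 27.3% of all genes tested were, and 4 higher in the kidney, where 28.2% were. The share called was thus below that of all genes in both directions. Of the 40 genes, 5 stood higher in capsule and 5 higher in kidney macrophages without overlap, against 18.9% and 35.1% of all genes tested. Ctla4, among those higher in capsule, and Eomes did not pass the filter on low counts. Without the filter edgeR called Ctla4 higher in capsule (adjusted p = 0.00901) and Eomes higher in kidney (adjusted p = 0.0025). With all groups in one edgeR fit both were also called (adjusted p = 0.00734 and 0.017). Mean levels of both were under 1 CPM in each group.

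Cd2 was at 31.8, 32.5, 41.5 and 33.5 CPM in capsule macrophages and 0.394, 0.626, 0.659 and 1.91 CPM in kidney macrophages (log2 fold change 5.44 ± 0.42, edgeR adjusted p = 2.29e-06). Every capsule library was above every kidney library, and without kidney replicate 4, the highest, the value was 6.18 (edgeR adjusted p = 1.5e-07). Cd28 was at 3.78, 4.78, 1.85 and 3.74 CPM against 0.109, 0.441, 0 and 0.160 CPM (4.45 ± 0.73, edgeR adjusted p = 0.000448), and it was 5.35 without kidney replicate 2. Cd4 was at 14.9, 9.84, 19.3 and 21.2 CPM against 3.15, 8.14, 3.14 and 8.14 CPM (1.72 ± 0.39, edgeR adjusted p = 0.00338). Icos was at 3.05, 2.10, 1.76 and 1.65 CPM against 0.241, 0.371, 0.534 and 0.521 CPM (2.57 ± 0.40, edgeR adjusted p = 0.000313). These 4 genes were higher in the capsule group without overlap. The T cell receptor genes Cd3d and Cd3g, under 1 CPM in the same libraries, had log2 fold changes in the same direction. The part of T cell RNA in the differences of the 4 genes was not tested. Cd3d was at 0.487, 0.419, 0.495 and 0.788 CPM in capsule and 0.197, 0.464, 0.220 and 0.0602 CPM in kidney macrophages (1.42 ± 0.59, edgeR adjusted p = 0.0627). It was called without kidney replicate 2, its highest kidney library (2.02, edgeR adjusted p = 0.0242). Cd3g was at 0.356, 0.542, 0.194 and 0.534 CPM against 0.153, 0.186, 0.251 and 0.0201 CPM (1.65 ± 0.66, edgeR adjusted p = 0.0567). It was called without capsule replicate 3, its lowest capsule library (1.89, edgeR adjusted p = 0.0428). Leaving out the library nearest the other group favours a smaller p by construction, so neither of these calls adds support.

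Il2ra was higher in the kidney, at 28.3, 20.6, 25.8 and 21.5 CPM against 2.75, 0.740, 1.64 and 1.25 CPM in the capsule (-3.68 ± 0.34, edgeR adjusted p = 8.3e-06). Klrd1 was at 16.4, 19.5, 18.5 and 27.0 CPM in kidney and 6.39, 2.64, 6.65 and 5.37 CPM in capsule macrophages (-1.75 ± 0.29, edgeR adjusted p = 0.000471). Klrk1 was at 25.1, 36.2, 26.7 and 41.6 CPM against 18.0, 11.3, 18.1 and 17.3 CPM (-0.80 ± 0.21, edgeR adjusted p = 0.00907). The groups did not overlap in these 3 genes. Gzma was at 2.67, 12, 3.08 and 14.9 CPM in kidney and 0.993, 2.76, 0.882 and 1.27 CPM in capsule macrophages (-2.29 ± 0.63, edgeR adjusted p = 0.0101), with an overlap between the groups. Lag3 was at 1.49, 2.20, 1.88 and 1.62 CPM in kidney and 1.18, 0.222, 0.473 and 0.890 CPM in capsule macrophages (-1.16 ± 0.49, edgeR adjusted p = 0.0663). Cd5 was at 1.14, 0.835, 1.07 and 1.99 CPM against 0, 0.271, 0.0646 and 0.687 CPM (-2.11 ± 0.93, edgeR adjusted p = 0.0768). Both were without overlap. Each was called without its highest capsule library, Lag3 without replicate 1 (-1.55, edgeR adjusted p = 0.0238) and Cd5 without replicate 4 (-3.32, edgeR adjusted p = 0.0161). That library lay nearest the kidney values, so its removal favours a smaller p by construction. Lag3 was also called by DESeq2 (adjusted p = 0.0479), by limma-voom (adjusted p = 0.027) and with all groups in one edgeR fit (adjusted p = 0.0445). Cd5 was called by limma-voom (adjusted p = 0.0101), and Cd3d by limma-voom (adjusted p = 0.0353) and with all groups in one edgeR fit (adjusted p = 0.0402).

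**Figure D4:**
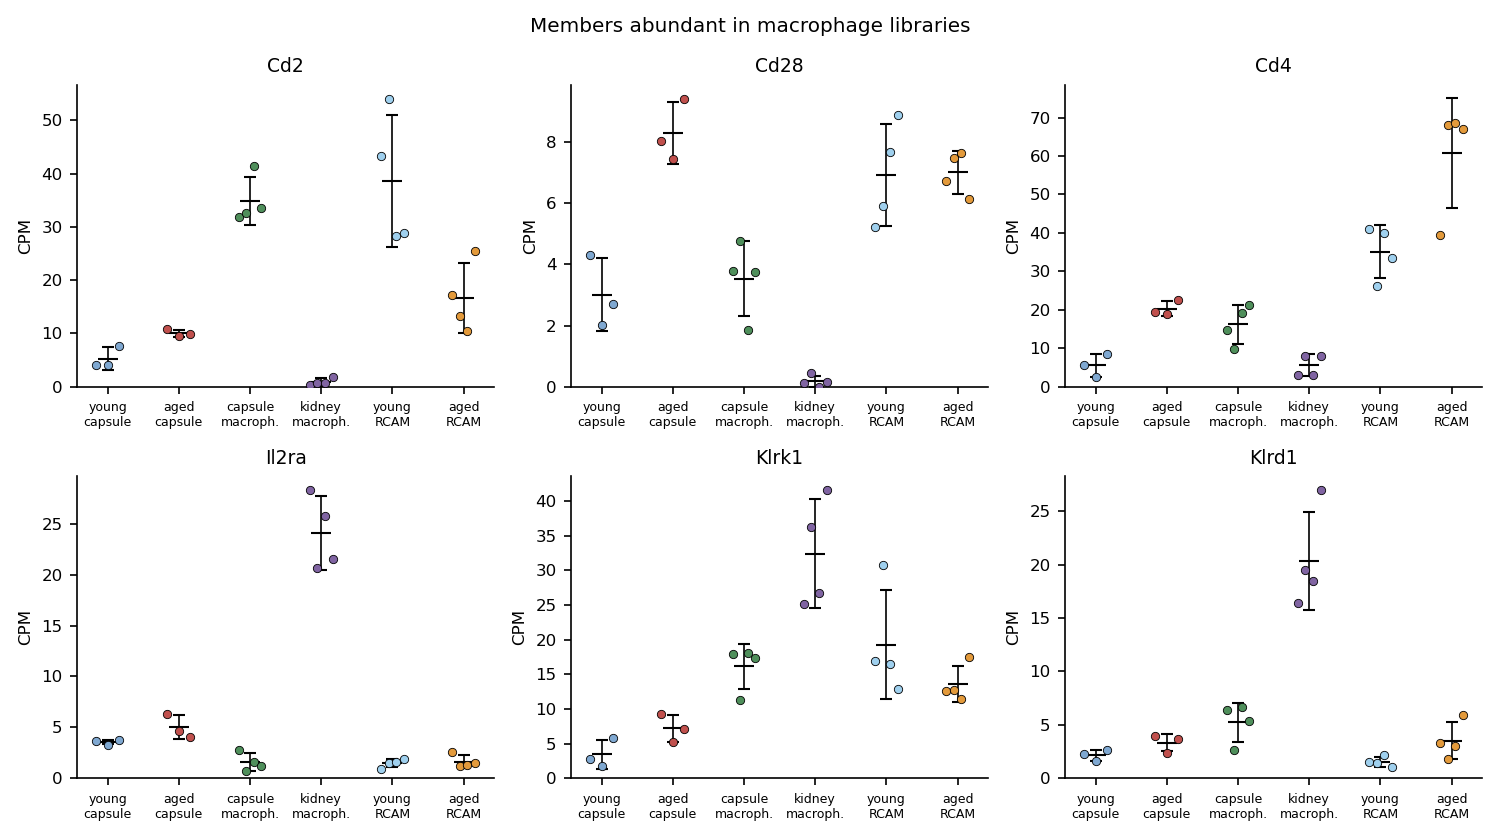
CPM (vertical axes, from 0) of 6 genes that were abundant in macrophage libraries, in the 6 groups, 1 point per library with the mean and 1 SD. Cd2, Cd28 and Cd4 lie higher in capsule than in kidney macrophages, Il2ra, Klrk1 and Klrd1 lie lower, and Cd2 is lower in aged than in young RCAM libraries.

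Kidney macrophage replicates 2 and 4 stood apart in killer cell genes. The 9 cytotoxic genes summed to 32.7 and 39.4 CPM in them and to 7.97 and 8.41 CPM in replicates 1 and 3. Prf1 was at 5.77 and 7.38 CPM against 0.897 and 1.07 CPM, Nkg7 at 6.96 and 7.46 CPM against 1.84 and 1.48 CPM. Ncr1 was at 3.39 and 3.25 CPM against 0.766 and 1.19 CPM, and Klrb1c at 1.90 and 2.57 CPM against 0.963 and 0.565 CPM. These genes are typical of NK cells, and Gzmb and Eomes followed the same order of libraries, and so did several T cell genes. Lck was at 4.48 and 2.79 CPM in replicates 2 and 4 against 0.854 and 0.973 CPM in replicates 1 and 3, Cd247 at 0.974 and 2.03 CPM against 0.547 and 0.440 CPM, and Cd4 at 8.14 and 8.14 CPM against 3.15 and 3.14 CPM. The T cell receptor complex summed to 2.62 and 2.67 CPM against 1.05 and 1.44 CPM. In all, 19 of the 40 genes lay higher in replicates 2 and 4 than in 1 and 3, while Cd3d, Cd3e, Cd3g and Trac did not. Among the 19 were 7 of the 9 cytotoxic and 4 of the 4 NK receptor genes. The share of all genes with this order of libraries was not counted. The split of these libraries was not confined to the 40 genes. The 6 proximal tubule markers summed to 1040 and 1080 CPM in replicates 2 and 4 against 1790 and 1950 CPM in replicates 1 and 3. Over genes with enough counts, replicates 1 and 3 were the most alike kidney pair, with a chi-square per degree of freedom of 9.49 against 29.9 to 59.2. How far the order is particular to the lymphocyte genes therefore cannot be said. Klrb1c was called higher in the kidney only when capsule replicate 2, its highest capsule library, was left out (-2.09, edgeR adjusted p = 0.0393, against 0.0927 with all libraries). Kidney replicates 2 and 4 were then both left out, an alternative chosen after these values were seen. They were picked as high in these genes, so smaller differences for Gzma, Klrk1 and Klrd1 were built into the choice. So were larger ones for Cd4, Cd28 and Zap70, which are among the 19. Gzma (-0.73, edgeR adjusted p = 0.292) and Klrk1 (-0.44, edgeR adjusted p = 0.124) were no longer called, which is therefore no test of them. Klrd1 and Il2ra remained called as higher in the kidney, which makes 2 genes where 22.9% of all genes tested were called in that direction. Cd2 (6.31), Cd28 (6.01), Cd4 (2.61) and Icos remained called as higher in the capsule, and Zap70 was called in addition (3.28, edgeR adjusted p = 0.0201), which makes 5 genes where 21.8% of all genes tested were called.

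**Figure D5:**
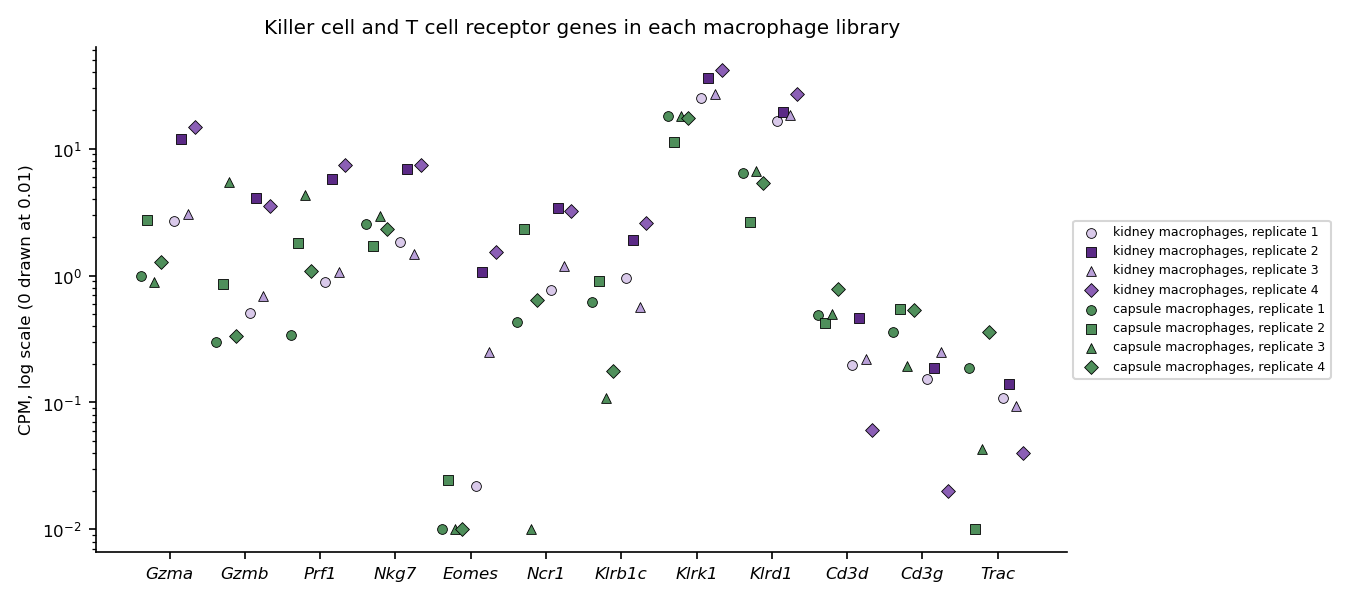
CPM (vertical axis, log scale, 0 drawn at 0.01) of 9 killer cell genes and 3 T cell receptor genes in each capsule (green) and kidney (purple) macrophage library, with 1 marker shape per replicate number. Kidney replicates 2 and 4 lie above kidney replicates 1 and 3 in the 9 killer cell genes, and the 3 T cell receptor genes lie under 1 CPM in all 8 libraries.

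Of the other pathway lists, 26 further T cell signalling genes were tested, of which 7 were called higher in capsule and 10 higher in kidney macrophages, where 27.3% and 28.2% of all genes tested were. The share of this list called in the capsule was thus near that of all genes, and the share called in the kidney was above it. Neither difference in shares was tested. Prkcq, a kinase of T cell receptor signalling, was at 24.6 to 42.0 CPM in capsule and 1.64 to 1.95 CPM in kidney macrophages (4.32 ± 0.19, edgeR adjusted p = 4.95e-08). Rasgrp1, an activator of Ras, was at 12.9 to 21 CPM against 98.4 to 129 CPM (-2.68 ± 0.16, edgeR adjusted p = 3.84e-07). Of 17 further cytotoxic and NK genes tested, 2 were called higher in the capsule and 4 in the kidney, fewer than those shares of all genes would give, with Ccl4, a chemokine gene, at 22.6 to 42.3 CPM against 232 to 267 CPM (-2.61 ± 0.18, edgeR adjusted p = 9.62e-07). Of 5 gamma-delta T cell and type 17 genes tested, 1 was called higher in the capsule and 2 in the kidney. The helper cytokine genes Il4 and Il10 were called higher in the capsule and Tnf higher in the kidney, of 3 tested. Il4 was at 1.75 to 5.23 CPM against 0 to 0.126 CPM. The 6 fibroblast markers (567 to 863 CPM in capsule and 7.49 to 11.3 CPM in kidney macrophages) and the 6 proximal tubule markers (8.16 to 99.0 CPM and 1040 to 1950 CPM) also differed between the groups, all 6 of each list without overlap. Of all genes tested, 18.9% stood higher in the capsule and 35.1% higher in the kidney without overlap. The part of fibroblast and tubule RNA in the values above was not tested. B cell markers summed to 148 to 171 CPM and 287 to 322 CPM, with Ms4a1 at 0 counts in all 8 libraries.

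In aged against young RCAM libraries 23 of the 40 genes could be tested. edgeR called 0 higher, where 3.43% of all genes tested were, and 1 lower, where 1.38% were. The gene called lower was Cd2, at 43.2, 54.0, 28.3 and 28.9 CPM in young and 17.3, 13.2, 10.5 and 25.5 CPM in aged RCAM libraries (-1.25 ± 0.29, edgeR adjusted p = 0.0400). Every aged value was below every young value, which held for 1 of the 40 genes (3.98% of all genes tested). Cd3e and Trbc1, at up to 0.428 CPM, were the 2 genes whose aged values all lay above the young ones (7.55% of all genes tested). The call for Cd2 was lost without any of young replicates 1, 2 or 4 or aged replicates 1, 2 or 3, with adjusted p-values of 0.053 to 0.0973 in edgeR, and with a replicate block (adjusted p = 0.0726), which called 0.369% of all genes tested as lower.

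In the higher direction 3 genes had an unadjusted p under 0.05 in edgeR (10.1% of all genes tested), and DESeq2 called those 3 genes (6.17% of all genes tested). Cd4 was at 41.1, 26.3, 39.9 and 33.4 CPM in young and 39.5, 68.1, 68.5 and 67.0 CPM in aged RCAM libraries (0.77 ± 0.20, edgeR adjusted p = 0.0612). Aged replicate 1 lay within the young range, and without it Cd4 was called (0.93, edgeR adjusted p = 0.0144). Il7r was at 3.36, 7.14, 4.18 and 1.99 CPM in young and 9.96, 10.3, 6.47 and 7.06 CPM in aged RCAM libraries (1.0 ± 0.35, edgeR adjusted p = 0.155). It overlapped through young replicate 2, without which it was called (1.39, edgeR adjusted p = 0.0415). For Cd4 and Il7r the library left out lay nearest the other age, which favours a smaller p by construction. Klrd1 was at 1.49, 1.48, 2.19 and 1.06 CPM against 3.29, 1.85, 2.98 and 5.92 CPM (1.15 ± 0.37, edgeR adjusted p = 0.123). Klrk1 was at 16.9, 30.8, 16.5 and 12.9 CPM in young and 12.6, 12.8, 11.5 and 17.5 CPM in aged RCAM libraries (-0.53 ± 0.25, edgeR adjusted p = 0.323). Cd28 was at 5.22 to 8.90 CPM in young and 6.14 to 7.65 CPM in aged RCAM libraries, and Icos at 0.533 to 1.02 CPM and 0.697 to 1.56 CPM. Both overlapped (edgeR adjusted p = 0.998 and 0.458).

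Aged RCAM replicate 1 was also the library with most T cell receptor RNA, at 5.37 CPM for the 7 genes against 1.14 to 2.26 CPM in the other aged and 0.241 to 1.47 CPM in the young RCAM libraries. Cd3g was at 1.35 CPM in it and at 0.135, 0.378 and 0.370 CPM in the other aged libraries, and the young libraries held 0, 0, 0 and 0.550 CPM (edgeR adjusted p = 0.538). It was called without young replicate 4, its highest young library, against libraries at 0 counts (edgeR adjusted p = 0.0496). Cd247 was at 1.09, 0.405, 0.356 and 0.218 CPM in aged and 0.331, 0.100, 0.0782 and 0.236 CPM in young RCAM libraries (edgeR adjusted p = 0.326). Among cytotoxic genes, Cd8a was at 1.43, 0.888, 0.556 and 0.762 CPM in aged and 0.202, 0.542, 0.724 and 0.118 CPM in young RCAM libraries (1.19 ± 0.59, edgeR adjusted p = 0.347). Gzma had 0 counts in all 4 aged and in 3 of the 4 young RCAM libraries, and Prf1 and Cd40lg had 0 counts in all 4 young ones. Zap70 was at 0.129, 0.341, 1.11 and 0.786 CPM in young and 0.385, 0.135, 0.222 and 0.174 CPM in aged RCAM libraries (-1.37 ± 0.67, edgeR adjusted p = 0.334). Lck was at 0.790, 1.26, 0.430 and 0.727 CPM against 1.5, 0.290, 1.33 and 2.29 CPM (0.71 ± 0.57, edgeR adjusted p = 0.613), and Lag3 stayed under 1 CPM in all 8 libraries (edgeR adjusted p = 0.485).

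Of 25 further T cell signalling genes tested in RCAM libraries, 2 were called higher and 1 lower with age, where 3.43% and 1.38% of all genes tested were. Slamf6, a receptor of T cells and NK cells, was one of those called higher (1.2 ± 0.27, edgeR adjusted p = 0.0334). Prkcq was at 27.2 to 33.7 CPM and 14.2 to 23.3 CPM (-0.76 ± 0.17, edgeR adjusted p = 0.0310). Of 12 further cytotoxic and NK genes, Slamf7, a receptor of NK cells and other leukocytes, was called higher (0.56 ± 0.13, edgeR adjusted p = 0.0332) and Itga2 lower (-2.35 ± 0.46, edgeR adjusted p = 0.0183). Of 6 gamma-delta T cell and type 17 genes, the chemokine receptor gene Ccr6 was called higher, with 0 counts in all young and 0.235 to 0.645 CPM in aged libraries, and of 3 helper cytokine genes 0 were called in edgeR. Fibroblast markers summed to 515 to 720 CPM in young and 890 to 2540 CPM in aged RCAM libraries, 3 of 6 called higher, and B cell markers to 147 to 160 CPM and 173 to 214 CPM, 3 of 8 called higher. Their part in the values of the lymphocyte genes was not tested.

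Whether age acted differently in RCAM libraries and in capsule tissue was tested as an interaction, in which all 40 genes passed the filter. edgeR called 1 gene, Cd2, where 5.05% of all genes tested were called. The age effect on Cd2 in RCAM libraries minus that in capsule tissue was -2.01 ± 0.46 on the log2 scale (edgeR adjusted p = 0.0306), Cd2 being higher in all 3 aged capsules and lower in all 4 aged RCAM libraries than in any young library of its kind. The call was lost without both capsule libraries numbered 2 (edgeR adjusted p = 0.064), without capsule replicate 1 of either age and without RCAM replicate 1 of either age (edgeR adjusted p-values of 0.0502 to 0.0698). limma-voom called none of the 40 genes (4.49% of all genes tested), the replicate block called 2, Cd2 and Cd8b1 (7.28%), and DESeq2 called 7 (12.3%). Cd28 had the next smallest p (-1.32 ± 0.37, edgeR adjusted p = 0.0539), with 8.29 ± 1.01 CPM in aged and 3.02 ± 1.18 CPM in young capsules (SD, n = 3) against 7.01 ± 0.70 CPM and 6.93 ± 1.68 CPM in aged and young RCAM libraries (SD, n = 4). Cd28 was called without young capsule replicate 1 (-1.64, edgeR adjusted p = 0.045), Klrk1 without young capsule replicate 3 (-2.05, edgeR adjusted p = 0.0322), Pdcd1 without aged RCAM replicate 3 (-3.18, edgeR adjusted p = 0.0422) and Cd40lg, at 0 counts in the young RCAM libraries, without aged RCAM replicate 2 (edgeR adjusted p = 0.0238). Each of these calls left out the library lying most against the difference, which favours a smaller p by construction. The differences of Cd4 (-0.94 ± 0.43, edgeR adjusted p = 0.218) and Il7r (-1.60 ± 0.68, edgeR adjusted p = 0.182) did not pass. Genes with 0 counts in most RCAM libraries, such as Cd8b1, Cd27 and Foxp3, are given no size of the difference here.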

How the data were processed

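Bulk RNA-seq of 22 mouse libraries in 6 title groups was analysed from the raw read counts per gene that the authors deposited, for 52636 Ensembl genes. Per the submitters' processing notes the build was GRCm38, and for aligner, counter and use of strand the entry is: not given in the sources used here. Per the labels' protocols a stranded mRNA kit and a low-input kit were both used on single-end reads, without saying which sample had which. The files' RPKM column was not used. Symbols came from GENCODE M21 (52489 identifiers found, 147 not).

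The main test on counts was that of edgeR 4.0.16 under R 4.3.3 (quasi-likelihood F test, 2-sided, TMM, filterByExpr, Benjamini-Hochberg over all genes tested, threshold 0.05), with only the compared groups in a fit and 1 model over 4 groups for the interaction. DESeq2 1.42.0 and limma 3.58.1 (voom) were alternatives, beside other scalings, no filter, a replicate block, all groups in one fit and each library left out. Where the library left out lies nearest the other group, a smaller p follows from its position, so such a call adds no support. The fitting code was tested on simulated data. Each level is CPM of the unscaled library total. Values after ± are standard errors of the edgeR fit or SDs, as marked, and both include variation among libraries. Floors cover counting error only.

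The 40 genes and the lists were chosen with earlier results of these data known. Values per library are given for genes that, in any comparison, were among the 12 of smallest p, or were among the 2 of highest mean level of their set in capsule tissue, and up to 4 genes of smallest p were considered for each pathway list, some of which are not reported here. Some further genes of the 40 were given per library after their values were seen.

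Replicate numbers were taken to pair capsule libraries. Over genes whose mean log2 CPM reached 3, deviations from the group means correlated at 0.201 to 0.540 between same-numbered young and aged libraries and at -0.511 to 0.055 between others. Over all genes tested, same-numbered libraries gave 0.099 to 0.353. The labels do not state the pairing, the deviations are not independent, and both replicate 2 libraries held adrenal transcripts, so any call made with the block depends on that pairing. In the macrophage and RCAM comparisons same-numbered libraries did not deviate together (-0.246 to 0.095).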

Additional observations from a re-analysis of the deposited data

Results flagged for a closer look

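In 129 sets of 4 libraries of 1 gene, 13 had a highest or lowest library far from the rest by Dixon's test. In 5 of the 13 the other 3 libraries had 0 counts (Cd3g, Gzma, Gzmb and Eomes in young RCAM, Eomes in aged RCAM), where the test passes whatever the highest value. Chance gives about 1 in 20 for normally spread values, which does not apply to those 5 and is only a rough guide for the other 8. Cd4 was lowest in aged RCAM replicate 1, at 39.5 CPM, next to 67.0 CPM. Klrk1 was lowest in capsule macrophage replicate 2, at 11.3 CPM. Gzmb was highest in capsule macrophage replicate 3, at 5.47 CPM, where the next library had 0.863 CPM, and Ctla4 was highest in capsule macrophage replicate 2, at 1.16 CPM. Young RCAM replicate 2 was the highest of its group for Nkg7 (2.79 CPM), Eomes (0.522 CPM) and Gzma (0.281 CPM). Eomes was also highest in aged RCAM replicate 4 (0.806 CPM), Gzmb in young RCAM replicate 3 (0.508 CPM), Cd3g in young RCAM replicate 4 (0.550 CPM) and Cd5 in aged RCAM replicate 1 (1.09 CPM). In kidney macrophages Cd3e was highest in replicate 2 (0.255 CPM) and Trbc1 in replicate 4 (0.401 CPM). Apart from Cd4, Klrk1, Gzmb in capsule macrophages and Nkg7, the levels named here were at or under 1.16 CPM.

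The effect of age on Cd2 differed between RCAM libraries and capsule tissue by -2.01 on the log2 scale (edgeR adjusted p = 0.0306). What separates the 2 kinds of library, and thus the source of this difference, was not tested.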

How the results depend on the processing

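The count of genes called higher in aged capsules was 0 in the main analysis, 1 with DESeq2's size factors, 16 without a filter, 20 with DESeq2, 1 with limma-voom, 19 with the replicate block, 2 with immunoglobulin, mitochondrial and haemoglobin genes out of the scaling, 6 with all groups in one fit, 4 without both libraries numbered 2 and 0 to 5 with 1 library left out. The count called lower was 0 in all of these. The cause of the spread was not tested. Where no share of all genes is given above for a fit, its count here cannot be judged against what that fit called. This holds for DESeq2's size factors in edgeR, the changed scaling, all groups in one fit and most fits with 1 library left out. It applies to the macrophage, RCAM and interaction counts below as well. In macrophages, the main counts of 4 higher in capsule and 4 in kidney became 4 to 6 and 4 to 6 with 1 library left out. Without kidney replicates 2 and 4, a choice made on these values, 2 were called in the kidney. In RCAM libraries, 3 genes were called higher with DESeq2, 1 with all groups in one fit and 0 to 1 with 1 library left out, against 0 in the main analysis. The 1 gene called lower was lost with the replicate block (0 called) and gave 0 to 1 with 1 library left out. The interaction called 7 genes with DESeq2, 0 with limma-voom, 2 with the replicate block, 4 with all groups in one fit, 0 without both capsule libraries numbered 2 and 0 to 2 with 1 library left out, against 1. The block called Cd5 in macrophages in addition (-2.81, edgeR adjusted p = 0.0460). Where a group is left with few libraries, the rest are assumed to vary alike. With CPM of the TMM-scaled total, the pan-T sum in capsule macrophages was 48.3 CPM in place of 44.9, the cytotoxic sum in aged capsules 44.5 CPM in place of 46.3 and Pdcd1 in aged capsules 2.75 CPM in place of 2.86, and the other levels moved by less than 1 SD. In the macrophage and RCAM groups 12 to 20 of the 40 genes had at least 10 counts in every library of the group, and for the others depth limits any difference that can be seen.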
